A study of Mus musculus with 7 samples.

Results

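Transfer RNA genes, the short genes whose RNAs carry amino acids to the ribosome, were examined for peaks of β-catenin and Pygo2 in chromatin of mouse branchial arches. The members are all genes with the biotype tRNA on the nuclear chromosomes of a RefSeq gene table of GRCm38.p6 (mm10), 408 of 49943 placed genes. The table holds 430 tRNA genes, and the 22 of the mitochondrial genome were left out. For each locus, peaks whose centre lay within 500 bp of the gene were recorded. The members were chosen by biotype in the annotation, and the only measured values in the rule are the peaks recorded at them. All counts below are therefore descriptions, without tests.

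The study profiled branchial arches of embryos at 10.5 days post coitum by chromatin immunoprecipitation and sequencing (ChIP-seq), with tissue pooled over many embryos. Its 7 libraries are input BA1 and BA2 from wild-type tissue, IgG BA1 with pre-immune serum as control, and ChIPs with antibodies to wild-type β-catenin or Pygo2, each from BA1 and BA2. What distinguishes BA1 from BA2 is not given in the labels. 2 peak lists were used, that of β-catenin BA2 with 1079 peaks (library of 13672937 tags) and that of Pygo2 BA2 with 7150 peaks (15009636 tags). The file headers name IgG BA1 as the control library of both. Each list comes from 1 library, so no value has a replicate error, and the 95% Wilson intervals given cover counting error only. A peak list does not measure RNA, so the labelled tissue could not be checked against its marker genes.

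tRNA genes are transcribed by RNA polymerase III. Their promoter lies inside the gene, as an A box near the start and a B box near the end of the transcribed sequence, which the factor TFIIIC binds and from which TFIIIB and the polymerase are placed. Mammalian genomes carry many copies for each anticodon, often in clusters, and only part of the copies is active in a given tissue. β-catenin is the nuclear effector of Wnt signalling and Pygo2 a PHD-finger co-factor that is bridged to it by Bcl9, and both are best known at genes of RNA polymerase II.

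The gene symbols give each tRNA its amino acid (the single-letter code after n-T) and its anticodon, so that n-TRtcg5 is a tRNA for arginine with the anticodon TCG. The sequence table used has no entries of its own for tRNA genes. It does hold the 300 bases around the starts of other genes, and 10 tRNA loci fall into such a window, 4 of them whole and 6 in part. The sequences that follow were read from these RefSeq windows (GRCm38.p6) and are written on the strand that carries the B box. Most are examples of a locus with a peak. Since all lie by the start of another gene, they do not stand for all loci with a peak. In the first 3, capitals mark the letters of the tRNA gene and the lower-case letters its surroundings. The stretch of n-TRtcg5 is a whole Pygo2 peak inside Polg. That of n-TTagt9 joins the gene to a whole Pygo2 peak ahead of it (35234873 to 35235039), which does not reach the gene. That of n-TLaag4 joins the last 71 of its 82 bases to a Pygo2 peak (120917546 to 120917712). This peak runs towards Polr3e, a gene for a subunit of RNA polymerase III.
n-TRtcg5, chr7:79466331-79466497, plus strand: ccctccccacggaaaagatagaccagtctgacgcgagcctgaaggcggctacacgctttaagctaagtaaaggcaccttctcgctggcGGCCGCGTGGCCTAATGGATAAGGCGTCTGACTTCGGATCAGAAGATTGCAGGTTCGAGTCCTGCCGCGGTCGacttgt
n-TTagt9, chr7:35234770-35235039, minus strand: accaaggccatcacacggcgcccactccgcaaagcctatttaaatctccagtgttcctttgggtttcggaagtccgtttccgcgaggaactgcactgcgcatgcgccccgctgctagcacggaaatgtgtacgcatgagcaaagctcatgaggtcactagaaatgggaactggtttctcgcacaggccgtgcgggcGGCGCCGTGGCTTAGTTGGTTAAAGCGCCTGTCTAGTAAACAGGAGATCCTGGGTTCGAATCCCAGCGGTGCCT
n-TLaag4, chr7:120917528-120917712, plus strand: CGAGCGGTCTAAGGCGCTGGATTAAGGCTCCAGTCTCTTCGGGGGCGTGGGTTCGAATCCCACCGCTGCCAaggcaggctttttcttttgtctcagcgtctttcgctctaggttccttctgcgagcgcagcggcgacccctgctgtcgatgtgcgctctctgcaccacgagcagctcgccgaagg

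Next come 2 whole genes of chromosome 13, with the B box in capitals. n-TVcac9 had the centre of a Pygo2 peak inside it, and the nearest Pygo2 peak to n-TAagc16 was 11501 bp away.
n-TVcac9, chr13:23446142-23446214, minus strand: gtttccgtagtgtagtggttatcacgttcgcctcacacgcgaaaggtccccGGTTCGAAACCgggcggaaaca
n-TAagc16, chr13:21222586-21222657, plus strand: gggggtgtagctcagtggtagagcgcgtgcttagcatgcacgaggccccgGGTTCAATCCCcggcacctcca

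A B box was found in both genes. The B box was searched on both strands by its consensus, of which GGTTCGAGTCC in n-TRtcg5 is a match, and strands were read with the base after GGTTC left free, a wider form that was chosen after the sequences were seen and contains the narrower one. n-TAagc16 matches the wider form alone, as GGTTCAATCCC. The narrower form is in 40 of 32851 promoter windows of 300 bases (0.122%) and the wider in 261 (0.794%). Both were in 4 of the 8 windows that hold a whole Pygo2 peak at a tRNA locus, namely those of Gm38989, Polg, Polr3e and Ndufs7, which are the windows that reach into a tRNA gene. The A box consensus, searched on both strands, was in 208 of all windows (0.633%) and in 0 of these 8. The windows of Polr3e and Ndufs7 hold only the last 71 and 34 bases of their tRNA gene, without its start. No wider form of the A box was searched, so this count does not show that the tRNA genes lack one. CTTTGA, searched on both strands and the core of the site of TCF/LEF factors, which carry β-catenin to DNA, was in 5257 of all windows (16.0%) and in 1 of these 8, that of BB557941 beside n-TAcgc8. At the 5 loci with a peak and a strand that could be read, the Pygo2 peak had no fixed side. Its centre lay 113 bp ahead of the first base of n-TTagt9 and 5 bp ahead of that of n-TRtcg5. It was inside n-TVcac9, and past the end of n-TLaag4 and n-TNgtt7 at 112 and 220 bp from the first base. For the other loci the gene table gives no strand, and ahead and behind were not told apart.

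Pygo2 peaks lay at 22.1% of the tRNA loci, and β-catenin peaks at fewer. A Pygo2 peak centre was within 500 bp of 90 of the 408 loci (22.1%, interval 18.3 to 26.3%), against 12.0% of all genes. Over protein-coding genes the share was 22.0% when peaks anywhere inside the gene counted and 14.0% when only the gene ends were used. Ends are points, against the 70 to 107 bp of a tRNA gene. Either end of a gene counted, so more sequence was searched for most protein-coding genes than for a tRNA gene. A β-catenin peak centre was within 500 bp of 25 loci (6.13%, interval 4.18 to 8.89%), against 1.84% of all genes, 3.33% of protein-coding genes and 1.50% of protein-coding gene ends. Either protein had a peak at 101 loci, and 307 loci (75.2%) had none.

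Genes for small nuclear RNAs, microRNAs and small nucleolar RNAs were less often near a peak. With the same window, Pygo2 peaks were at 28 of 1004 genes for small nuclear RNAs (2.79%, interval 1.94 to 4.00%), which serve in splicing, at 27 of 1228 genes for microRNAs (2.20%, interval 1.52 to 3.18%) and at 8 of 1340 genes for small nucleolar RNAs (0.597%, interval 0.303 to 1.17%), which guide RNA modification. The β-catenin shares of these classes were 0.598%, 0.163% and 0.373%. The order of tRNA genes above these classes was the same at every window from 100 bp to 10000 bp in the plot of shares by window size. At 100 bp the Pygo2 share was 10.3% for tRNA genes and 5.80% for protein-coding gene ends, and at 10000 bp it was 46.6% and 27.2%. The intervals treat genes as independent, whereas tRNA genes that lie together share peaks.

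**Figure D1:**
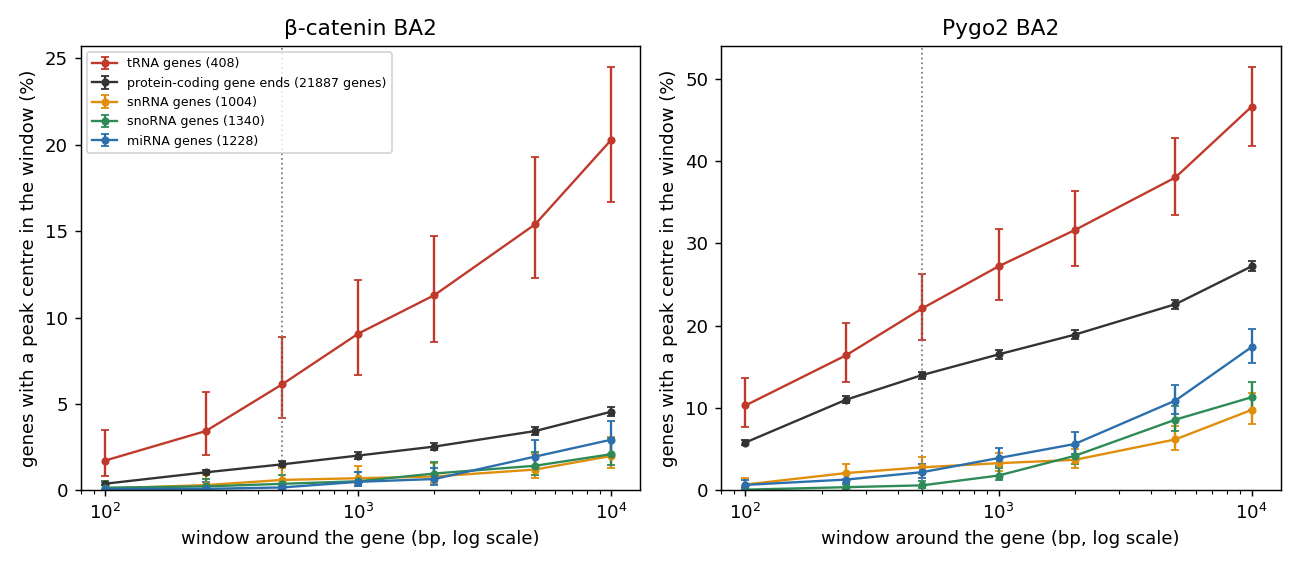
Share of genes with a peak centre within a window of the gene (x axis, bp, log scale; y axis, percent) for tRNA genes, protein-coding gene ends and 3 classes of short RNA genes, with 95% Wilson intervals, in the β-catenin BA2 list and the Pygo2 BA2 list. The dotted line marks 500 bp, where 22.1% of tRNA genes had a Pygo2 peak and 6.13% a β-catenin peak; the tRNA curve lies above the others at every window drawn.

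In all, 70 Pygo2 peaks lay at tRNA loci, 0.979% of the list (interval 0.776 to 1.24%), and 17 β-catenin peaks, 1.58% of the list (interval 0.986 to 2.51%). Within 100 bp of the gene lay 41 of the 70 Pygo2 peaks, with 12 centres inside a gene, and 7 of the 17 β-catenin peaks, with 1 centre inside a gene. The median distance from peak centre to the nearest tRNA gene was 62.0 bp for Pygo2 and 105 bp for β-catenin, within the 500 bp that the rule allows. The nearest protein-coding gene end was over 2000 bp away for 41 of the 70 Pygo2 peaks and 10 of the 17 β-catenin peaks. The merged surroundings of the 408 loci cover 388 kb and held 180 Pygo2 peaks and 43.8 β-catenin peaks per Mb, against 3.58 and 0.539 per Mb of the genome size of 2000000000 bp named in the file headers. The genome values include sequence far from any gene, and the density around protein-coding gene ends was not computed. A total of 23 Pygo2 peaks and 7 β-catenin peaks had more than 1 tRNA gene within 500 bp, at most 3.

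The distance of 500 bp cuts through a continuous range. The Pygo2 loci just inside it were n-TSaga9 at 431 bp, n-TWcca2 at 433 bp and n-TYgta1 at 462 bp, and those just outside n-TGgcc8 at 503 bp, n-TSgct3 at 532 bp and n-TRacg5 at 580 bp. For β-catenin, n-TMcat6 at 408 bp, n-TGtcc6 at 463 bp and n-TDgtc9 at 478 bp lay inside, and n-TGgcc5 at 502 bp, n-TWcca2 at 506 bp and n-TRcct5 at 557 bp outside.

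Peaks at tRNA loci stood early in the deposited lists. The deposited score is 1 for every peak and gives no strength, and the sort order is not stated in the headers, so list position is only a description. In the Pygo2 list, 25 of the 70 peaks (35.7%) were in the first 10%, 65 (92.9%) in the first 50% and none in the last 10%, with the median at 13.8% of the list. Among the 2723 Pygo2 peaks within 500 bp of a protein-coding gene end, 16.4% were in the first 10% and the median was at 33%. For β-catenin, 6 of 17 peaks were in the first 10% and 16 of 17 in the first 50%, with the median at 13.1%, whereas the 287 peaks at protein-coding gene ends had 5.57% in the first 10% and a median at 47.2%.

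**Figure D2:**
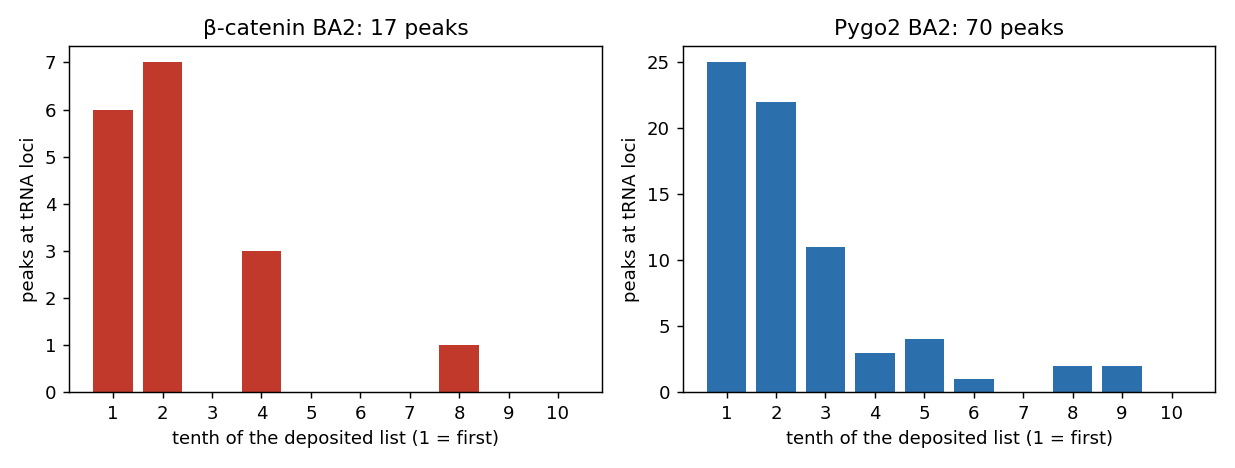
Number of peaks at tRNA loci (y axis) in successive classes of 10% of the deposited β-catenin BA2 and Pygo2 BA2 lists (x axis, 1 is the start of the list). The first class holds 6 of 17 β-catenin and 25 of 70 Pygo2 peaks, and the last holds none.

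The earliest-listed Pygo2 peak at a tRNA locus was number 40 of 7150 and lay on chromosome 11 (69124243 to 69124409), with its centre 4 bp from n-TLtag3, a tRNA gene for leucine, and 281 bp from n-TQctg6, one for glutamine. It is 272 bp from an end of Hes7, a gene of the segmentation clock. Number 44 (69041630 to 69041796) lay between n-TGtcc6, for glycine, and n-TWcca7, for tryptophan, at 364 and 113 bp. Its nearest protein-coding gene, Aurkb, which encodes a mitotic kinase, is 3911 bp away. These peaks are thus 2 of the first 44 of the list. Number 57 on chromosome 6 was 311 bp from n-TRcct1, for arginine, and number 64 on chromosome 11 was 16 bp from n-TIaat5, for isoleucine, and 385 bp from n-TSaga4, for serine, which had a second Pygo2 peak at 281 bp. Numbers 135 and 136 lay beside each other on chromosome 5 at n-TYgta9 (37 bp), for tyrosine, and n-TAagc15 (29 bp), for alanine. The second of these is also 23 bp from an end of Agbl5. Other loci among the 15 with the earliest Pygo2 peaks were n-TWcca2 and n-TDgtc16 at Tmpo, n-TIaat16 at Plekhg2, n-TYgta7 on chromosome 13, and n-TNgtt12 and n-TGtcc7 on chromosome 3. The last 2 lie 27309 and 24083 bp from the nearest protein-coding gene end.

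β-catenin peaks were nearest to the gene at n-TFgaa7, a tRNA gene for phenylalanine on chromosome 5 (125406055 to 125406127), where the centre was inside the gene. They were 11 bp from n-TGgcc6 (glycine, chromosome 13), 14 bp from n-TWcca7 (tryptophan, chromosome 11), 28 bp from n-TTagt7 (threonine, chromosome 11), 32 bp from n-TPagg4 (proline, chromosome 14), 38 bp from n-TSgct7 (serine, chromosome 2) and 50 bp from n-TPcgg3 (proline, chromosome 11). The next nearest were n-TYgta7, n-TKctt14, n-TDgtc16, n-TIaat17, n-TMcat9, n-TGtcc7, n-TAagc17 and n-TRacg6, at 101 to 251 bp. The β-catenin peak earliest in its list at a tRNA locus was number 38 of 1079, the one at n-TWcca7, followed by number 54 at n-TTagt7 and number 76 at n-TPcgg3, all on chromosome 11. n-TRacg6 lies 226 bp from an end of Prmt5, an arginine methyltransferase gene, and had no Pygo2 peak within 10 kb.

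Peaks of both proteins were present at 14 loci (3.43%, interval 2.05 to 5.68%), against 1.15% of all genes, 2.14% of protein-coding genes and 0.978% of protein-coding gene ends. This is 56.0% of the 25 β-catenin loci and 15.6% of the 90 Pygo2 loci. Over all genes, 573 had both, of 921 with a β-catenin peak and 5981 with a Pygo2 peak. At protein-coding gene ends it was 214, of 328 and 3055. The 56.0% was thus not above either comparison. The 15.6% was higher than both, but its interval (9.5 to 24.4%) includes the share over all genes, though not that at gene ends. Neighbouring loci share peaks, which this interval does not allow for. At 7 of the 14 a β-catenin and a Pygo2 peak overlapped, and these 7 loci rest on 4 pairs of peaks. At n-TGgcc6 and n-TMcat6 the centres of the pair were 14 bp apart, at n-TFgaa7 and n-TDgtc15 18 bp, at n-TDgtc16 73 bp and at n-TWcca7 and n-TGtcc6 99 bp. At the other 7 loci the peaks were neighbours without overlap, from 179 bp between centres at n-TIaat17 to 639 bp at n-TRcct1. At n-TIaat17 the Pygo2 centre was inside the gene and the β-catenin centre 133 bp away, and at n-TGccc7 the distances were 0 and 305 bp. Of the 17 β-catenin peaks at tRNA loci, 4 (23.5%, interval 9.56 to 47.3%) overlapped a Pygo2 peak, against 25.3% of the whole list. For Pygo2 it was 4 of 70 (5.71%, interval 2.24 to 13.8%), against 3.82%. The overlap at tRNA loci was therefore not told apart from that of the lists as wholes. The lists share their control, IgG BA1, whose tags at these loci were not used here, and its part in the result was not tested.

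**Figure D3:**
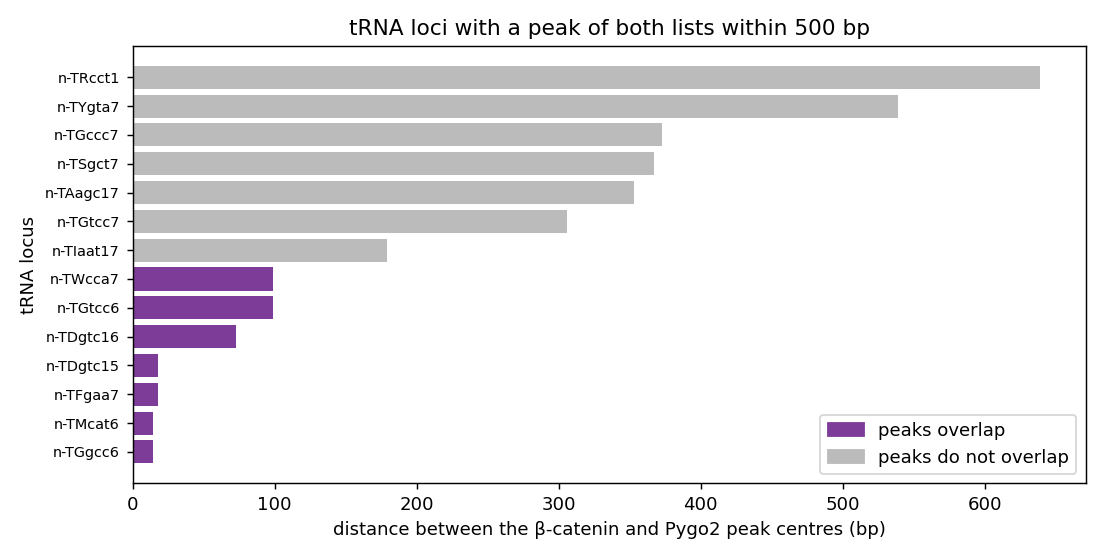
Distance in bp (x axis) between the closest β-catenin and Pygo2 peak centres at each of the 14 tRNA loci with a peak of both lists within 500 bp (y axis). The 7 loci with overlapping peaks lie at 14 to 99 bp, and the other 7 at 179 to 639 bp.

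The chromosomal clusters differed widely. Joined at gaps up to 100 kb, the loci form 129 clusters, of which 95 hold 1 locus, while 7 hold 18 or more and together 217 loci. The cluster of chromosome 11 (69037003 to 69125248, 18 genes of 11 amino acids) had a peak at 16 of 18 genes, with Pygo2 at 11 (61.1%, interval 38.6 to 79.7%) and β-catenin at 7 (38.9%). It lies among Ctc1, Aurkb, Borcs6, Per1, a circadian clock gene, and Hes7. Most of its genes are within 2000 bp of a protein-coding gene end, and 56.7% of all loci that near had a Pygo2 peak. Its 7 Pygo2 peaks were spread over the cluster, while its 3 β-catenin peaks were at the 7 successive genes from n-TPcgg3 to n-TSgct3. The genes without a peak within 500 bp were n-TRtct4 and n-TKctt27, where Pygo2 peaks were 758 and 850 bp away.

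The largest cluster of mixed genes, on chromosome 13 (23270421 to 23530419, 45 genes of 15 amino acids), had Pygo2 at 11 genes (24.4%, interval 14.2 to 38.7%) and β-catenin at 4. The other large clusters of chromosome 13 had Pygo2 at 4 of 32 and 5 of 24 genes, and those of chromosomes 1 and 3, with 25 genes each, at 4 and 3. At the end of the 45-gene cluster, n-TMcat9 was 157 bp from a β-catenin peak. The nearest Pygo2 peak, number 8 of its list, was 658 bp away, at the histone gene H4c8. In a small cluster beside Mrpl58 on chromosome 11, all 3 arginine genes (n-TRcct5, n-TRcct3 and n-TRtcg4) share 1 Pygo2 peak.

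No peak of either list lay at the largest cluster of all, on chromosome 6 (48133937 to 48363603). It holds 48 genes, each for cysteine with the anticodon GCA. The 8 and 4 alanine genes that form the 2 largest clusters of chromosome X had none either, nor did the 17 loci of that chromosome as a whole. The 7 loci of chromosome 8, the 4 of chromosome 15 and the 2 of chromosome 16 were also without a peak. With so few loci, their Pygo2 intervals reach 35.4%, 49.0% and 65.8%, which includes the 22.1% of all tRNA loci. On chromosome 11, 5 further loci (Trnat-ugu, Trnap-ugg, Trnav-aac, Trnal-aag and Trnav-cac) carry coordinates between 8361 and 1440467, below the first peak of either list there at 3122424. Whether these coordinates belong to the assembled chromosome is not given in the table, so the absence of peaks there says nothing about these loci.

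**Figure D4:**
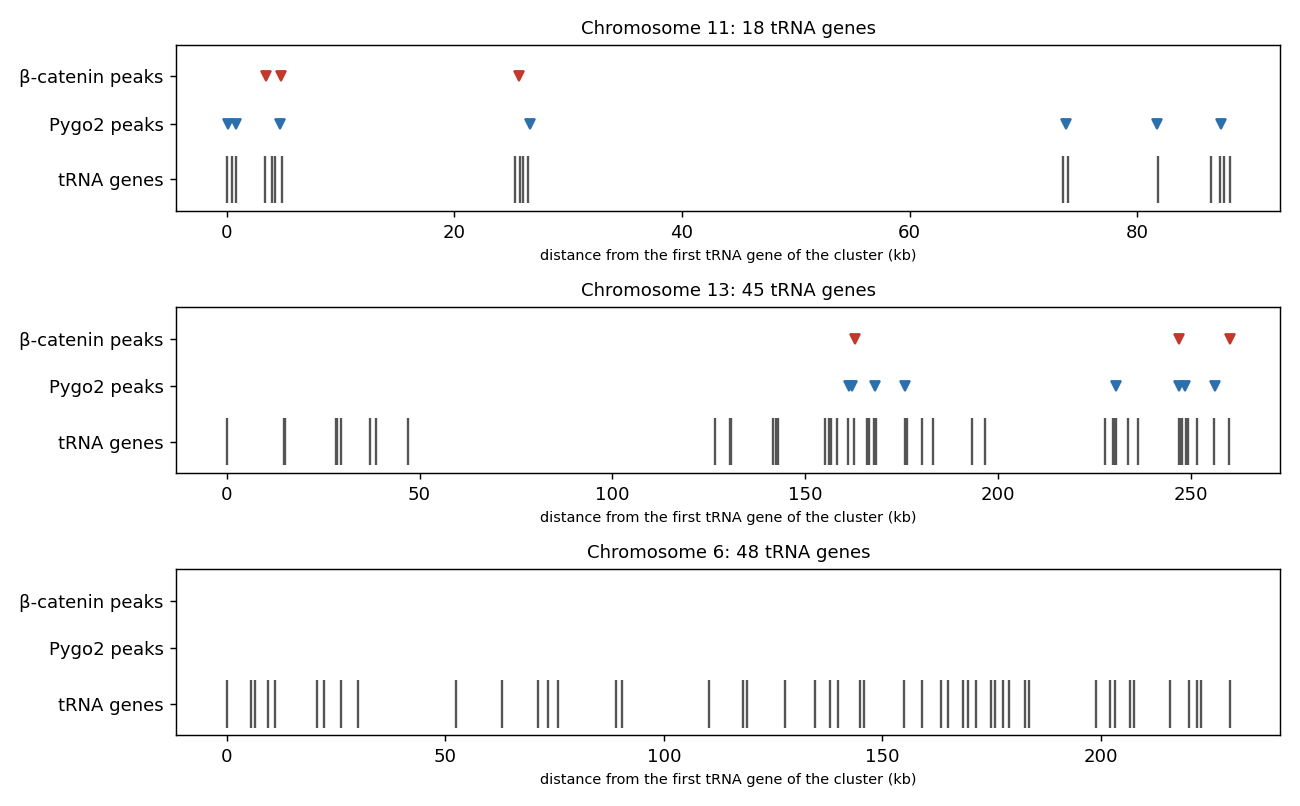
tRNA genes (grey lines) with Pygo2 (blue) and β-catenin (red) peak centres within 500 bp of a tRNA gene in 3 clusters, by distance in kb from the first tRNA gene (x axis). The 18 genes of chromosome 11 carry 7 Pygo2 and 3 β-catenin peaks, the 45 genes of chromosome 13 carry 8 and 3, and the 48 cysteine genes of chromosome 6 carry none.

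By amino acid, 19 of 20 classes had at least 1 locus with a Pygo2 peak and 14 with a β-catenin peak. Cysteine was the class without any, with 0 of 57 loci for both proteins (interval 0 to 6.31%). Of the cysteine loci 49 are on chromosome 6. Outside cysteine, 25.6% of 351 loci had a Pygo2 peak and 7.12% a β-catenin peak. The Pygo2 share was highest for tryptophan (4 of 8) and tyrosine (5 of 10), followed by arginine (11 of 24, 45.8%, interval 27.9 to 64.9%) and isoleucine (6 of 16). It was lowest after cysteine for proline (1 of 17), histidine (1 of 11), glutamine (2 of 16) and methionine (2 of 16). With so few loci a class, the intervals of neighbouring classes overlap; that of tryptophan runs from 21.5 to 78.5% and that of proline from 1.05 to 27.0%. For β-catenin, glycine had the most loci by count (4 of 28, 14.3%), then aspartate (3 of 16, 18.8%), which had the highest share. None were found for valine, leucine, glutamate, glutamine or asparagine.

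Counts also differed between anticodons of an amino acid, on few loci each and without a test. Of 48 anticodons 38 had a Pygo2 locus, 19 a β-catenin locus and 8 neither. For leucine, 4 of 6 loci with AAG had a Pygo2 peak and 0 of 10 with CAG. For alanine it was 4 of 13 with AGC and 0 of 11 with TGC. All 3 proline loci with CGG and the 6 with AGG lacked Pygo2 at this distance, while 1 of each had a β-catenin peak.

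**Figure D5:**
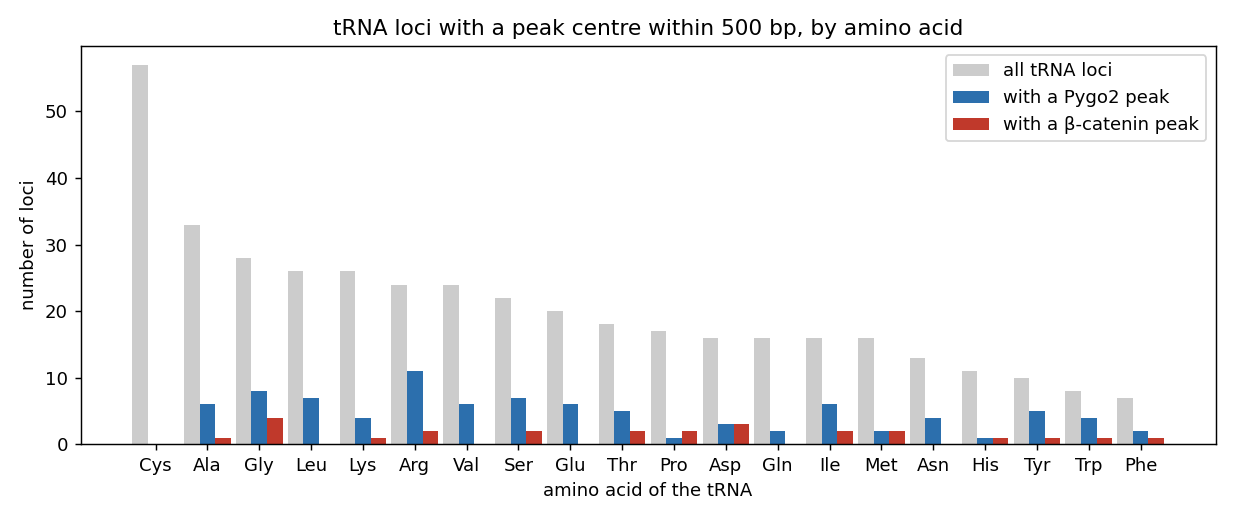
Number of tRNA loci (y axis) for each amino acid (x axis), with those that had a Pygo2 or β-catenin peak centre within 500 bp. Cysteine has the most loci, 57, and none with a peak, while arginine has 11 of 24 with a Pygo2 peak.

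The share of loci with a peak was higher near protein-coding genes than far from them in both lists, as a description without a test. Within 2000 bp of a protein-coding gene end, 38 of 67 loci (56.7%, interval 44.8 to 67.9%) had a Pygo2 peak and 9 (13.4%, interval 7.23 to 23.6%) a β-catenin peak. Farther away, the counts were 52 of 341 (15.2%, interval 11.8 to 19.5%) and 16 of 341 (4.69%, interval 2.91 to 7.49%). The Pygo2 share of the distant loci was thus close to the 14.0% of protein-coding gene ends, and their β-catenin share above the 1.50% there. Both ends of a protein-coding gene were searched, so the sequence covered was not matched in this comparison. Of the 34 loci inside a protein-coding gene, 7 had a Pygo2 peak and 0 a β-catenin peak. Loci with another tRNA gene within 2000 bp had Pygo2 at 60 of 219 (27.4%) and β-catenin at 18 of 219 (8.22%), and loci without such a neighbour at 30 of 189 (15.9%) and 7 of 189 (3.70%).

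The genes of the machinery that makes and uses tRNAs were counted beside the loci. Of 30 genes for subunits and factors of RNA polymerase III, 13 had a Pygo2 peak within 500 bp of a gene end (43.3%, against 14.0% of protein-coding genes) and 0 a β-catenin peak, against 1.50% of protein-coding genes. They include Polr3a (10 bp), which encodes the largest subunit, Polr3b (30 bp), which encodes the second largest, Polr3d (92 bp), Polr3e (149 bp), the TFIIIB gene Brf1 (199 bp), the TFIIIC genes Gtf3c4 (57 bp) and Gtf3c6 (308 bp), and Maf1 (342 bp), which encodes a repressor of the polymerase. The peak at Polr3e is the one printed above, 31 bp from n-TLaag4. Of 22 genes for cytosolic aminoacyl-tRNA synthetases and their scaffold proteins, 7 had a Pygo2 peak at an end (31.8%) and 0 a β-catenin peak. They are Lars (9 bp), Yars (24 bp), Vars (26 bp), Sars (27 bp), Mars1 (110 bp), Kars (143 bp) and Aimp1 (298 bp). Of 34 genes for tRNA processing and export, 15 had a Pygo2 peak at an end (44.1%) and 3 a β-catenin peak (8.82%), namely Ssb, which encodes the La protein that binds new polymerase III transcripts (208 bp), the export receptor gene Xpot (32 bp) and the splicing endonuclease gene Tsen54 (120 bp).

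Among 79 other genes transcribed by RNA polymerase III, 4 had a Pygo2 peak within 500 bp (5.06%, against 12.0% of all genes) and 1 a β-catenin peak (1.27%, against 1.84%), the Y RNA gene Rny1 at 476 bp. The Pygo2 peaks were at Vaultrc5, a vault RNA gene, with the centre inside, at Rn7s1, a signal recognition particle RNA gene (110 bp), at Rmrp (317 bp) and at Rn7sk (321 bp). None of the 69 genes for 5S ribosomal RNA in this list, 42 of them on chromosome 8, had a peak of either protein. They make up most of the 79, so the pooled 5.06% and 1.27% mainly describe 5S genes. All the peaks named here were at the few other members.

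Many tRNA genes are near-identical copies, and reads from one copy can align to another. How reads with several possible positions were handled is not given in the sources used here. Peaks assigned to a single copy, and the absence of peaks at copies in large uniform clusters such as that of chromosome 6, are uncertain to this extent, and the part of read alignment in these counts was not tested.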

How the data were processed

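The data are ChIP-seq peak lists, 1 for β-catenin BA2 and 1 for Pygo2 BA2. Per the file headers, the authors called peaks with HOMER findPeaks (factor style) on 1 library each against IgG BA1, at a false discovery rate of 0.001, at least 2-fold over IgG and over the local 10 kb, each with a Poisson p-value up to 1e-04. Per the submitters' processing notes, the build is mm10 and the tools include HOMER, Bowtie and Bowtie2, without versions. The deposited score is 1 for every peak and was not used as a strength. The deposited coordinates were made 1-based. Peaks are 169 bp (β-catenin) and 167 bp (Pygo2) wide.

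Distances run from the peak centre to the gene, and are 0 inside it. Genes and sequences came from RefSeq tables of GRCm38.p6. Of the sequences, 10 tRNA loci had one. Close groups join loci at gaps up to 2000 bp, clusters at gaps up to 100 kb. The counting recovered planted distances on simulated data. The window, the stricter use of the list, the overlap and the choice of loci were varied. Python 3.11.15, NumPy 2.4.6, pandas 2.3.3, SciPy 1.17.1 and Matplotlib 3.10.9 were used.

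The members, lists and rules were chosen with earlier results of these data known. Named were the 15 loci nearest to a β-catenin peak, the loci with overlapping peaks, the 15 loci with the earliest-listed Pygo2 peaks (the earliest of all peaks within 500 bp), the largest clusters, the loci next to the 500 bp limit and list members with a peak. Other names were chosen after their values were seen.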

Additional observations from a re-analysis of the deposited data

How the results depend on the processing

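With 500 bp, 25 loci had a β-catenin peak, 90 a Pygo2 peak and 14 both, from 17 and 70 peaks. The counts moved with the distance allowed. At 100 bp they were 7, 42 and 2 loci, from 7 and 41 peaks. When the peak had to overlap the gene, they were 7, 38 and 2 loci, from 7 and 38 peaks. At 250 bp, 14 loci had a β-catenin peak and 8 both, at 1000 bp 28 had both, and at 2000 bp 46 had a β-catenin peak and 41 both. Loci over 2000 bp from protein-coding gene ends gave 16 and 52 loci, from 10 and 40 peaks. With 1 locus kept per close group of 270, the counts were 10, 47 and 6, or 3.70%, 17.4% and 2.22%. Both of these settings count fewer loci. Counted by group, 16 of the 270 close groups (5.93%) held a locus with a β-catenin peak and 60 (22.2%) one with a Pygo2 peak. A locus with both was in 11 groups (4.07%). Peaks of both lists overlapped by at least 1 bp at 7 loci, and by at least 50% of the narrower peak at 5. The other 26 of 50 values stayed within 1.5 times, among them all those from the first 50% of each list (24, 86 and 13 loci). This holds also for counts without the cysteine loci and without the 5 loci below the first peak of chromosome 11, which were chosen after seeing the data. No paired analysis was possible because each list is 1 library and no test was made. No second library of either protein was analysed here, so how far the loci would recur is unknown.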
